A study of Mus musculus with 24 samples.

Results

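The livers of mice that lack Cpt2 in hepatocytes (Cpt2 L-/-) were compared directly with the livers of mice that lack Rab30 in hepatocytes (Rab30 L-/-), with 4 libraries in each group out of 24 libraries in the series. The members are the 4 libraries labelled Cpt2 liver-specific KO and the 4 labelled Rab30 liver-specific KO, and the comparison was read across all expressed genes. Both groups were C57/BL6J males, 8 to 10 weeks old by the study's methods, fasted for 24 h and collected at the same hour, and both carried an albumin-Cre transgene, so the recombinase itself was common to both sides. Cpt2 L-/- mice were homozygous for a floxed Cpt2 allele and Rab30 L-/- mice for an allele with floxed exon 4 of Rab30. Neither group was an unmutated control, so a difference between them can come from either side. The paper gives each knockout its own floxed littermate controls, so genotype and breeding line cannot be told apart in this comparison. The albumin promoter directs Cre to hepatocytes, and the other cells of the liver keep both genes. RNA was taken from whole frozen liver, and the labels give no litter, extraction or sequencing batch. The other groups of the series were double floxed littermates of the double knockouts without Cre (ff;ff), liver knockouts of both genes (DKO), whole-body Rab30KO mice and their littermates (Rab30 Ctrl), each with 4 libraries and the same fast.

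Carnitine palmitoyltransferase 2 (Cpt2) sits on the inner mitochondrial membrane and returns long-chain acyl groups from carnitine to coenzyme A, which is the obligate step that lets long-chain fatty acids enter mitochondrial oxidation. In a fasted liver, fatty acids from adipose tissue are the main fuel, they feed ketone body synthesis, and they or their derivatives activate the nuclear receptor Pparα, which drives the genes of fatty acid oxidation, lipid droplets and fasting hormones. Rab30 is a small GTPase of the Golgi and of the vesicles that leave it, and the hepatocyte uses the same secretory route to export most of the proteins of blood plasma. The comparison asks how a liver without long-chain fatty acid oxidation differs from one without this Golgi GTPase when both are fasted.

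The targeted genes were examined first. Values are CPM, read counts scaled to a common library total with TMM factors, given for replicates 1 to 4 in that order. Rab30 (ENSMUSG00000030643, GRCm38 chr7:92741603-92844535, plus strand) had 122, 129, 188 and 149 CPM in Cpt2 L-/- and 19.2, 10.4, 26.6 and 12.3 CPM in Rab30 L-/- (log2 fold change 3.08, SE 0.29, adjusted p = 4.2e-05, from the quasi-likelihood test of edgeR, adjusted over all genes tested by the Benjamini-Hochberg method). The groups did not overlap, and every Rab30 L-/- library still held Rab30 reads. In the ff;ff livers Rab30 was 36.5 ± 9.54 CPM (SD, n = 4), and in the DKO libraries, which should lack the gene too, it was 101 to 231 CPM when reads were summed over the whole gene. Against ff;ff, Rab30 was higher in Cpt2 L-/- by a log2 difference of 1.99 (adjusted p = 2.7e-05), and in Rab30 L-/- the difference was -1.10 (adjusted p = 0.174), so the separation between the 2 knockouts came with a higher level on the Cpt2 L-/- side.

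Cpt2 itself (ENSMUSG00000028607, GRCm38 chr4:107903981-107923610, minus strand) had 95.2, 116, 167 and 128 CPM in the libraries labelled Cpt2 L-/- and 267, 214, 226 and 169 CPM in those labelled Rab30 L-/- (log2 fold change -0.80, SE 0.18, adjusted p = 0.00494, edgeR). The groups did not overlap, but the libraries labelled Cpt2 L-/- held as much Cpt2 as ff;ff, where it was 132 ± 5.14 CPM (SD, n = 4). The log2 difference from ff;ff was -0.07 (adjusted p = 0.788) in Cpt2 L-/- and 0.73 (adjusted p = 0.0772) in Rab30 L-/-. Counts were summed over whole genes and do not resolve a deleted exon, so reads from a transcript that lacks 1 exon would still be counted, and these values cannot check the deletion. Directions in this report are therefore those of the libraries as labelled.

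**Figure D1:**
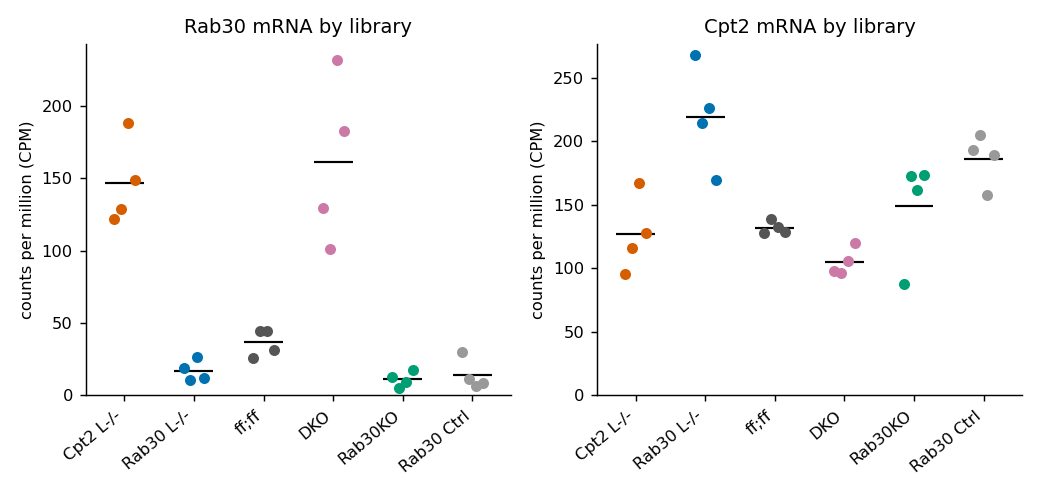
CPM of Rab30 and Cpt2 in each library of the 6 groups (points, with the group mean as a line). Rab30 was highest in Cpt2 L-/- and DKO, and Cpt2 in the libraries labelled Cpt2 L-/- lay at the level of ff;ff while those labelled Rab30 L-/- lay higher.

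The 8 libraries held between 13248673 and 24497738 counts, and the deepest was Rab30 L-/- replicate 3, the other 7 lying at or under 14456194. All pairs of libraries within a group differed by more than counting noise, so none was a second deposit of another. The study's methods call the 4 libraries of a genotype biological replicates. Of 54532 genes in the table, 13359 were expressed highly enough to be tested, and 4192 of them (31.4%) passed an adjusted p under 0.05 with at least a 1.2-fold difference. They were split evenly, with 2050 higher in Cpt2 L-/- (15.3% of genes tested) and 2142 lower (16.0%). At 2-fold or more the split was uneven, with 676 higher and 1082 lower, together 13.2% of genes tested. At 8-fold or more, 81 genes were higher and 96 lower. The CPM of the 2 groups did not overlap for 3575 of the 4192 genes, and for 4160 of all 13359 genes tested (31.1%).

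**Figure D2:**
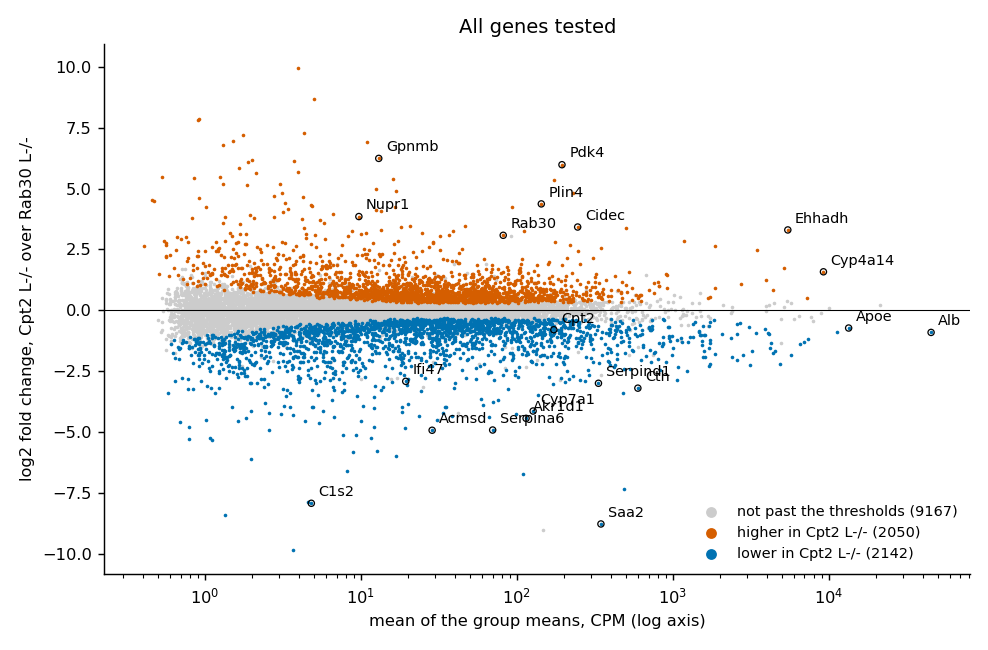
Log2 fold change, Cpt2 L-/- over Rab30 L-/-, against mean expression for the 13359 genes tested, with genes past the thresholds in colour. The 2050 higher and 2142 lower genes were almost equal in number, while 196 were at least 4-fold higher and 311 at least 4-fold lower.

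Genes higher in Cpt2 L-/- took 22.7% to 24.7% of all counts in the Cpt2 L-/- libraries and 8.85% to 10.9% in the Rab30 L-/- libraries, and genes lower in Cpt2 L-/- took 24.0% to 26.4% against 44.6% to 49.3%. The same genes set both shares, which are given as a description. The median log2 fold change over all genes tested was 0.00, a centre that the TMM scaling largely sets. Among 11939 protein-coding genes tested, 1937 were higher and 1886 lower, whereas among 258 antisense genes 18 were higher and 58 lower, and among 283 long intergenic RNAs 28 were higher and 65 lower. Whether the counting used strand is not stated, so an antisense gene cannot be told from its partner here.

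Against ff;ff, 3155 of 13270 genes (23.8%) passed in Cpt2 L-/- and 64 of 13367 (0.479%) in Rab30 L-/-. These comparisons share their ff;ff libraries and are used only to set values side by side. Since ff;ff livers had no Cre, the transgene and the deletion cannot be told apart in either of them, while both sides of the direct comparison carried Cre.

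The protein-coding genes with the largest differences and no overlap between the groups, which are descriptions of the extreme, included several that were all but silent in Rab30 L-/-. Pdk4, the kinase that shuts pyruvate dehydrogenase when fat is the fuel, had 470.1, 284, 337 and 446 CPM in Cpt2 L-/- and 7.17, 5.27, 5.53 and 6.29 CPM in Rab30 L-/- (log2 fold change 5.98, SE 0.22, adjusted p = 2.4e-08, edgeR). Gpnmb, a membrane glycoprotein of lysosome-rich cells, had 22.3, 23.4, 28.1 and 29.3 CPM against 0.453, 0.247, 0.419 and 0.152 CPM (log2 fold change 6.24, SE 0.24, adjusted p = 2.8e-08). Elovl7, a fatty acid elongase, had 19.1, 21.4, 26.8 and 19.5 CPM against 0, 0.165, 0.293 and 0.152 CPM (log2 fold change 6.90, SE 0.34, adjusted p = 1.6e-07). All 4 Cpt2 L-/- libraries were high for each of them, though the log2 fold change of Elovl7 was 7.58 without Rab30 L-/- replicate 3. Olfr1033, an olfactory receptor gene, had 7.62, 9.37, 8.35 and 6.300 CPM in Cpt2 L-/- and no count in any Rab30 L-/- library, so it was at least 165-fold higher, taking a floor of 3 counts over the Rab30 L-/- group. In ff;ff it had no count. DKO had 3.42, 0, 0 and 0 CPM, Rab30 Ctrl 7.99, 0, 5.56 and 3.59 CPM and Rab30KO 4.44, 0, 0.0721 and 0 CPM. Its level thus varied between libraries of one genotype, and the cause was not tested.

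Others had 1 to 3 counts in the whole Rab30 L-/- group, and for these the ratio of counts is given with its counting interval in place of the fitted value. Fabp3, the heart-type fatty acid binding protein, had 4.99, 8.803, 14.2 and 12.2 CPM in Cpt2 L-/- against 0, 0, 0 and 0.0758 CPM, a ratio of 626 (95% counting interval 112 to 24800.0). Ucp3, a mitochondrial carrier of muscle that Pparα drives, had 2.24, 2.08, 2.91 and 5.74 CPM against 0.226, 0, 0 and 0 CPM, a ratio of 67.7 (95% counting interval 22.9 to 331). Aqp3, an aquaporin that also passes glycerol, had 3.01, 3.52, 4.01 and 4.49 CPM against 0.0754, 0, 0.0838 and 0 CPM, a ratio of 78.3 (95% counting interval 26.5 to 382). Each was present in all 4 Cpt2 L-/- libraries and at or near 0 in all 4 others. The ratio was 180.0 (95% counting interval 61.3 to 876) for the β-tubulin Tubb2b, 219 (95% counting interval 38.9 to 8690.0) for the transcription factor Creb5 and 82.6 (95% counting interval 27.9 to 403) for the scaffold protein Mpp3. These ratios rest on few libraries, since the counts of the Rab30 L-/- group lay in replicate 4 alone for Fabp3, in replicate 1 alone for Ucp3 and in replicate 3 alone for Tubb2b and Creb5. The fitted log2 fold changes, which depend on the prior count at such levels, were 8.70, 5.83, 7.30 and 7.21 with all libraries and 10.33, 8.71, 9.97 and 8.66 without the library named. Without Rab30 L-/- replicate 3 the fitted value went from 6.17 to 6.83 for Mpp3, from 6.09 to 6.76 for Aqp3 and from 5.83 to 5.22 for Ucp3. Sdcbp2, a syntenin, and Ephb2, a receptor tyrosine kinase, had fitted log2 fold changes of 6.15 and 5.70 (adjusted p = 1.0e-04 and 1.5e-05).

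At the other extreme, Acmsd, the decarboxylase that draws tryptophan breakdown away from NAD synthesis, had 1.79, 2.33, 1.49 and 1.68 CPM in Cpt2 L-/- and 28.4, 63.5, 58.02 and 72.3 CPM in Rab30 L-/- (log2 fold change -4.93, SE 0.31, adjusted p = 2.1e-06, edgeR). Aph1c, a subunit of γ-secretase, had 0.896, 1.13, 0.776 and 0.624 CPM against 13.05, 19.1, 24.7 and 37.7 CPM (log2 fold change -4.78, SE 0.36, adjusted p = 6.1e-06). Mmd2, a membrane protein of the progestin receptor family, had 0.3200, 0.252, 0.453 and 0.187 CPM against 5.28, 18.04, 30.9 and 15.7 CPM (log2 fold change -5.83, SE 0.60, adjusted p = 1.1e-04). The groups lay far apart for all 3. For Aph1c and Mmd2 the log2 differences from ff;ff were -2.16 (adjusted p = 0.00768) and -3.51 (adjusted p = 4.6e-05) in Cpt2 L-/- and 2.62 (adjusted p = 0.11) and 2.32 (adjusted p = 0.0837) in Rab30 L-/-, so only the differences of Cpt2 L-/- passed. Aph1c spread widely within other genotypes, with 1.68, 1.38, 4.93 and 29.6 CPM in Rab30 Ctrl and 28.5, 2.43, 20.3 and 3.49 CPM in Rab30KO. Lrtm1, a leucine-rich repeat membrane protein, had a log2 fold change of -5.14 (adjusted p = 1.3e-04), and Fam81a had a count ratio, Rab30 L-/- over Cpt2 L-/-, of 78.00 (95% counting interval 26.4 to 381), with a fitted log2 fold change of -6.13, or -7.07 without Cpt2 L-/- replicate 3. Tff3, a trefoil peptide of mucosal secretions, had 6.18, 6.76, 84.2 and 34.7 CPM in Rab30 L-/- against 0, 0.692, 1.23 and 0.187 CPM, and its call was lost without Cpt2 L-/- replicate 4 (log2 fold change -5.97, SE 1.32, adjusted p = 0.0158, and 0.0536 without that library), while without Rab30 L-/- replicate 3 the log2 fold change was -4.92 and without Cpt2 L-/- replicate 3 it was -6.78.

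Fatty acid oxidation genes were mostly higher in Cpt2 L-/-. Of 26 genes of mitochondrial fatty acid uptake and oxidation tested, 14 were higher and 2 lower (61.5% past the thresholds, against 31.4% of all genes tested), with a median log2 fold change of 0.60. Cd36, the fatty acid transporter of the plasma membrane, had 207, 183, 211 and 205 CPM in Cpt2 L-/- and 17.3, 16.8, 32.1 and 16.6 CPM in Rab30 L-/- (log2 fold change 3.27, SE 0.21, adjusted p = 1.1e-06, edgeR). Crat, which buffers acyl groups between coenzyme A and carnitine, had 315, 278, 285 and 358 CPM against 118, 64.02, 103 and 50.3 CPM (log2 fold change 1.87, SE 0.25, adjusted p = 2.5e-04). Slc22a5, the plasma membrane carnitine transporter, had 199, 181, 203 and 216 CPM against 90.5, 65.1, 82.7 and 57.1 CPM (log2 fold change 1.43, SE 0.15, adjusted p = 3.1e-05). None of the 3, which had the largest differences of the list, overlapped between the groups, and they belong to uptake and the carnitine shuttle. Beside the genes that the rule fixed, the defining enzymes and regulators of each pathway are named with their values here and in the paragraphs that follow, and these were chosen after their values were seen. The enzymes of the β-oxidation spiral had smaller differences, of 0.84 and 0.85 for Hadha and Hadhb, the subunits of the trifunctional protein, and 0.82 for the long-chain dehydrogenase Acadl, on the log2 scale.

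The lower members were Acad10 (-0.74) and Echs1 (-0.43), and neither call held when single libraries were left out. Acad10 overlapped between the groups and had an adjusted p of 0.0545 without Cpt2 L-/- replicate 1, 0.0765 without replicate 3 and 0.0746 without replicate 4 of that group, 0.0549 without Rab30 L-/- replicate 3 and 0.0676 without its replicate 4. Echs1 had 0.0575 without Cpt2 L-/- replicate 1 and 0.0781 without its replicate 4. Cpt1a, the outer-membrane partner of Cpt2 and the rate-limiting entry step, did not pass (log2 fold change 0.29, SE 0.17, adjusted p = 0.219). The median log2 difference of the list from ff;ff was 0.57 for Cpt2 L-/- and 0.02 for Rab30 L-/-, over 27 and 26 members tested.

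Among 6 ketone body genes, 4 were higher and none lower (66.7%, median 0.49). Slc16a6, a monocarboxylate transporter, had 5.76, 10.2, 5.69 and 5.36 CPM in Cpt2 L-/- against 3.09, 3.87, 3.94 and 2.58 CPM in Rab30 L-/- (log2 fold change 0.99, SE 0.26, adjusted p = 0.0109, edgeR), without overlap. The transporter Slc16a1 (1.14) lost its call without Cpt2 L-/- replicate 3 or 4 or Rab30 L-/- replicate 2, 3 or 4 (adjusted p 0.0699, 0.0640, 0.0657, 0.0530 and 0.0538), and the thiolase Acat1 (0.52) without Cpt2 L-/- replicate 2, 3 or 4 or Rab30 L-/- replicate 2 or 4 (0.0730, 0.0895, 0.0570, 0.0978 and 0.0969).

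Peroxisomes shorten very long fatty acids by a pathway that does not need Cpt2. Of 33 peroxisomal genes tested, 19 were higher and 2 lower in Cpt2 L-/- (63.6%, median 0.50). Ehhadh, the bifunctional enzyme of the inducible peroxisomal pathway, had 10324, 8277, 9139 and 12015 CPM in Cpt2 L-/- and 1659.8, 507, 1366 and 495 CPM in Rab30 L-/- (log2 fold change 3.30, SE 0.43, adjusted p = 4.3e-04, edgeR). Pex11a, which drives peroxisome division, had 595, 492, 612 and 685 CPM against 172, 93.7, 85.8 and 56.3 CPM (log2 fold change 2.54, SE 0.31, adjusted p = 1.9e-04). Acaa1b, a peroxisomal thiolase, had 5439.5, 4502, 6776 and 6994 CPM against 1851, 598, 1207 and 612 CPM (log2 fold change 2.46, SE 0.37, adjusted p = 8.7e-04). All 3 were above in every Cpt2 L-/- library. The import and membrane factors Pex26 (-1.28) and Pex2 (-0.53) were the lower members.

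A further list held 31 tested targets of Pparα outside these pathways, and 19 were higher and none lower in Cpt2 L-/- (61.3%), with a median log2 fold change of 1.2. Pdk4, Aqp3 and Ucp3, given above, were its largest members, so the list holds genes of the extreme as well as of moderate size. Aqp3 and Ucp3 could be tested only through their level in Cpt2 L-/-. The median log2 difference from ff;ff was 0.92 for Cpt2 L-/- and -0.34 for Rab30 L-/-, over 31 and 28 members tested, which are not all the same genes. The counts behind it were 15 higher and 0 lower in Cpt2 L-/-, where 23.8% of all genes passed. They were 0 and 0 in Rab30 L-/-, where 0.479% of all genes passed, so the latter is near its background. Ppara itself had 256, 218, 114 and 213 CPM in Cpt2 L-/- and 138, 141, 163 and 123 CPM in Rab30 L-/- and did not pass (log2 fold change 0.51, SE 0.21, adjusted p = 0.0959, edgeR), but passed without Cpt2 L-/- replicate 3 (0.70, adjusted p = 0.00265). Cyp4a14, a fatty acid ω-hydroxylase and among the 10 most abundant genes that passed, had 15259, 14296, 12831 and 13185 CPM against 6515, 3275, 6038 and 2689 CPM (log2 fold change 1.58, SE 0.27, adjusted p = 8.8e-04), again without overlap. Its coding sequence resembles those of its neighbours in the Cyp4a cluster, and reads shared by such copies may be split between them.

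Genes of the lipid droplet surface and of lipolysis were also higher. Of 18 tested, 12 were higher and none lower in Cpt2 L-/- (66.7%, median 1.06). Plin4, a perilipin, had 301, 208, 245 and 344 CPM in Cpt2 L-/- and 10.6, 12.9, 17.9 and 11.3 CPM in Rab30 L-/- (log2 fold change 4.37, SE 0.22, adjusted p = 1.9e-07, edgeR). Cidec, which fuses droplets, had 335, 444, 507 and 515 CPM against 67.7, 16.6, 64.4 and 18.2 CPM (log2 fold change 3.42, SE 0.54, adjusted p = 0.00226). Fitm1, which helps droplets form at the endoplasmic reticulum (ER), had 11.01, 10.9, 17.1 and 13.5 CPM against 2.64, 2.47, 0.838 and 2.43 CPM (log2 fold change 2.68, SE 0.32, adjusted p = 7.5e-05). No overlap was seen for the 3, and Rab30 L-/- replicate 3 was the lowest library for Fitm1. Pnpla2, the triglyceride lipase of the droplet, was higher by 0.95 (adjusted p = 7.1e-04), while its inhibitor G0s2 did not pass (-0.44, adjusted p = 0.463).

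Triglyceride synthesis and lipoprotein loading split by enzyme. Of 25 genes tested, 10 were higher and 4 lower (56%, median 0.14). Mogat1, a monoacylglycerol acyltransferase, had 2.37, 2.01, 3.49 and 2.31 CPM in Cpt2 L-/- and 0, 0.3296, 0.251 and 0.0758 CPM in Rab30 L-/- (log2 fold change 3.82, SE 0.51, adjusted p = 1.6e-04, edgeR), and Mogat2, of the same family, had a log2 fold change of 2.52 (adjusted p = 0.0013). With 11 and 23 counts over the Rab30 L-/- group, Mogat1 and Mogat2 could be tested only through their level in Cpt2 L-/-. Lpin2, a phosphatidate phosphatase, had 1626, 1154, 1133 and 1417 CPM against 618, 406, 440.1 and 403 CPM (log2 fold change 1.51, SE 0.19, adjusted p = 9.7e-05). The carboxylesterase Ces3b had 102, 153, 117 and 118 CPM against 558, 579, 337 and 714 CPM (log2 fold change -2.17, SE 0.22, adjusted p = 2.7e-05), and the lipoprotein loading factor Tm6sf2 was lower by -1.18 (adjusted p = 3.9e-04). None of these overlapped between the groups.

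**Figure D3:**
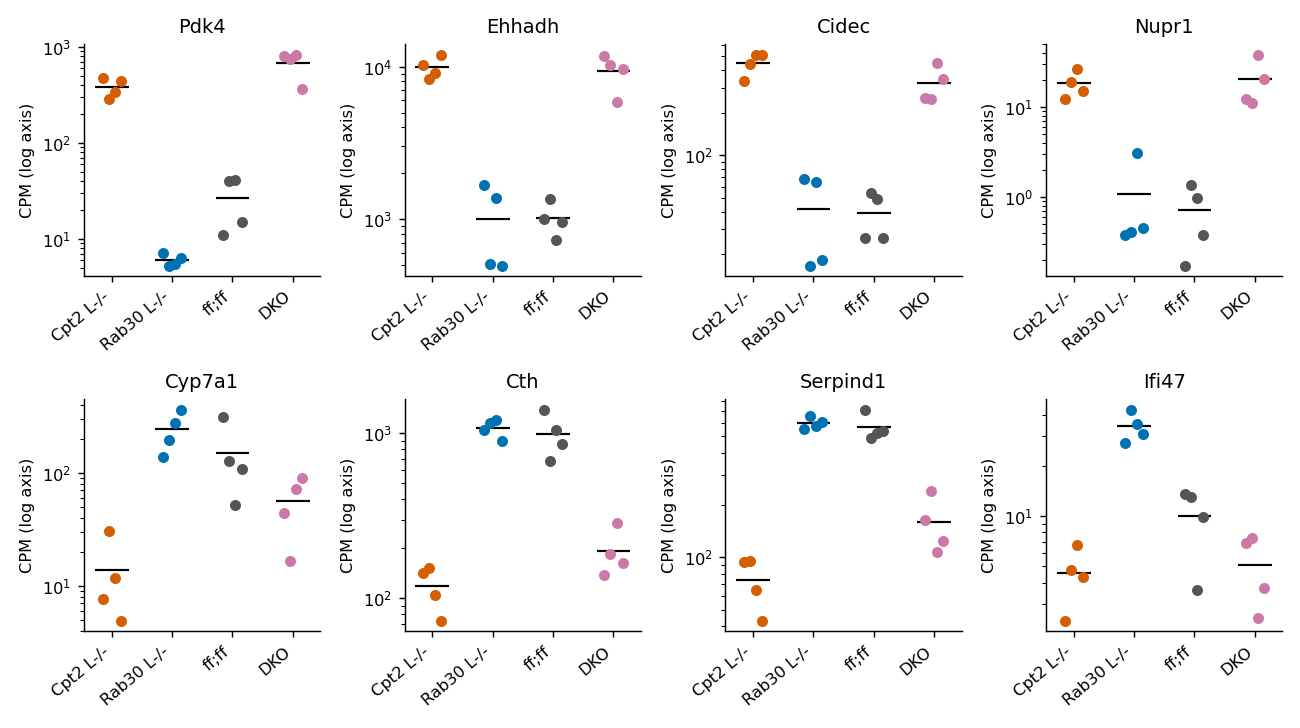
CPM on a log axis in each library of Cpt2 L-/-, Rab30 L-/-, ff;ff and DKO for 8 genes, with the group mean as a line. Fatty acid, droplet and stress genes lay above all 4 Rab30 L-/- libraries in all 4 Cpt2 L-/- libraries, and bile acid, amino acid, plasma protein and interferon-induced genes lay below.

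Apolipoproteins went the other way. Of 17 tested, 11 were lower and 1 higher in Cpt2 L-/- (70.6%, median -0.69). The higher member was Apoa4, an apolipoprotein of triglyceride-rich particles, with 6500.3, 7610.4, 8836 and 8587 CPM in Cpt2 L-/- and 2161, 1015, 4845 and 1533 CPM in Rab30 L-/- (log2 fold change 1.72, SE 0.43, adjusted p = 0.0149, edgeR), and its log2 fold change was 2.31 without Rab30 L-/- replicate 3. The call of Apoa4 was lost when no filter on low counts was used. Apon had 142, 212, 272 and 167 CPM against 660.2, 669, 473 and 581 CPM (log2 fold change -1.60, SE 0.20, adjusted p = 9.6e-05), and Apoe, the ligand by which remnants are taken up, had 9639, 8421, 11698 and 10804 CPM against 17321, 15166, 20716 and 13711 CPM (log2 fold change -0.73, SE 0.17, adjusted p = 0.00665). Both were lower in every Cpt2 L-/- library. The largest fold changes were those of Apol9a (-3.98) and Apol9b (-3.91), near-identical copies that the counting may not separate. Apoa2 (-0.69) lost its call without Cpt2 L-/- replicate 1 or 2 (adjusted p 0.0555 and 0.0609), and Apob, the structural protein of very low density lipoprotein, did not pass (log2 fold change -0.36, SE 0.18, adjusted p = 0.151), except without Rab30 L-/- replicate 3 (-0.50, adjusted p = 0.0255).

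In de novo lipogenesis, 3 of 23 genes tested were higher and 8 lower (47.8%, median -0.27). Thrsp, a nuclear factor that follows lipogenic activity, had 1.41, 3.899, 2.65 and 2.25 CPM in Cpt2 L-/- and 20.3, 31.1, 13.9 and 22.5 CPM in Rab30 L-/- (log2 fold change -3.10, SE 0.32, adjusted p = 4.3e-05, edgeR). Elovl6, which elongates palmitate, had 9.41, 10.7, 11.2 and 12.5 CPM against 20.6, 19.5, 48.6 and 18.96 CPM (log2 fold change -1.31, SE 0.30, adjusted p = 0.00829). Me1, which makes NADPH from malate, went the other way with 219.9, 252, 313 and 253 CPM against 94.7, 59.4, 49.1 and 56.6 CPM (log2 fold change 1.99, SE 0.20, adjusted p = 2.6e-05). For all 3 the groups were apart. The desaturase Scd1 did not pass (-0.54, adjusted p = 0.603), and Acacb and Elovl5 were higher by 1.19 and 1.14. Thrsp lies in the 5 Mb beside Rab30 on chromosome 7, and it was 17.4 ± 6.69 CPM (SD, n = 4) in ff;ff and 2.58 to 5.003 CPM in the DKO libraries, which by their label carry the deleted Rab30 allele too.

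Cholesterol synthesis genes were divided too, with 3 higher and 10 lower of 23 (56.5%, median -0.39). Ebp, a sterol isomerase, had 57.3, 69.6, 75.4 and 54.7 CPM in Cpt2 L-/- and 127, 135, 161 and 118 CPM in Rab30 L-/- (log2 fold change -1.08, SE 0.14, adjusted p = 1.1e-04, edgeR), without overlap. The higher members were Cyp51 (0.83), Hmgcs1 (0.65) and Hsd17b7 (0.44), the last 2 with overlapping groups. When 1 library was left out, Hsd17b7 kept its call only without Cpt2 L-/- replicate 3 or Rab30 L-/- replicate 1 and had an adjusted p up to 0.140 otherwise. Msmo1 (-1.02), also with overlapping groups, kept its call only without Cpt2 L-/- replicate 2 or Rab30 L-/- replicate 1 or 3 (up to 0.0870 otherwise).

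Of 24 genes of bile acid synthesis and transport tested, 12 were lower and 2 higher in Cpt2 L-/- (58.3%, median -0.71). Cyp7a1, the rate-limiting enzyme of bile acid synthesis, had 7.68, 30.6, 11.6 and 4.93 CPM in Cpt2 L-/- and 137, 196, 272 and 359.5 CPM in Rab30 L-/- (log2 fold change -4.14, SE 0.66, adjusted p = 0.00329, edgeR). Akr1d1, the reductase that saturates the sterol ring, had 14.1, 13.8, 7.05 and 5.61 CPM against 144, 291, 219 and 225 CPM (log2 fold change -4.44, SE 0.37, adjusted p = 3.2e-05). Nr0b2, the nuclear receptor that normally represses Cyp7a1, had 2.37, 0.8803, 1.23 and 1.12 CPM against 36.8, 23.2, 17.3 and 13.8 CPM (log2 fold change -4.02, SE 0.40, adjusted p = 5.6e-05). The groups were apart for each, and without Cpt2 L-/- replicate 2 the log2 fold change of Cyp7a1 was -4.92. The synthesis enzyme and its repressor were thus both lower in the same libraries.

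Among transporters, Abcb11, which exports bile salts into the canaliculus, was lower by a log2 value of -2.08 and Slc10a1, which takes them up from blood, by -1.48 (adjusted p = 1.7e-04 and 1.9e-05). Abcc4, which exports bile acids and other anions back to blood, had 3.97, 4.59, 2.85 and 4.74 CPM in Cpt2 L-/- and 0.8296, 1.895, 1.72 and 0.607 CPM in Rab30 L-/- (log2 fold change 1.65, SE 0.35, adjusted p = 0.00346, edgeR), without overlap. Its log2 difference from ff;ff was 0.07 (adjusted p = 0.873) in Cpt2 L-/- and -1.59 (adjusted p = 0.1) in Rab30 L-/-, so neither passed. The means of Abcc4 were 3.82 CPM in ff;ff, 3.38 in DKO, 4.54 in Rab30KO and 4.19 in Rab30 Ctrl, nearer to Cpt2 L-/- (4.04) than to Rab30 L-/- (1.26). The other higher member, Hsd3b7, had overlapping groups at low counts and lost its call without Cpt2 L-/- replicate 3 or 4 or Rab30 L-/- replicate 2 or 3 (adjusted p 0.0858, 0.0569, 0.0553 and 0.0584).

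The cytochromes P450 of families 1 to 3, which oxidize drugs, steroids and retinoids, gave 21 lower and no higher genes of 36 tested (58.3%, median -1.06). Cyp2c54 had 34.7, 18.7, 16.6 and 20.02 CPM in Cpt2 L-/- and 289.7, 270.1, 153 and 294 CPM in Rab30 L-/- (log2 fold change -3.49, SE 0.30, adjusted p = 2.6e-05, edgeR). Cyp2c70, which makes the muricholic acids of the mouse, had 1.41, 2.26, 5.37 and 1.43 CPM against 27.3, 52.5, 14.5 and 56.9 CPM (log2 fold change -3.86, SE 0.62, adjusted p = 0.00296), and -4.46 without Cpt2 L-/- replicate 3. Cyp2c genes are close paralogs, and Cyp2d37-ps (-2.68) is a pseudogene, so these values may share reads with their neighbours. Cyp2f2, an enzyme of periportal hepatocytes, had 183, 189, 154 and 97.8 CPM against 884, 845, 703 and 834 CPM (log2 fold change -2.40, SE 0.20, adjusted p = 5.9e-06), without overlap. The median log2 difference of the list from ff;ff was -0.92 for Cpt2 L-/- and -0.05 for Rab30 L-/-, over 36 and 37 members tested.

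Of 24 genes of gluconeogenesis, glycogen targeting and glucose entry, 14 were lower and 2 higher in Cpt2 L-/- (66.7%, median -0.78). Sds, the serine dehydratase that yields pyruvate, had 76.3, 96.7, 36.9 and 47.7 CPM in Cpt2 L-/- and 387, 439, 656 and 444 CPM in Rab30 L-/- (log2 fold change -2.90, SE 0.31, adjusted p = 1.1e-04, edgeR). Ppp1r3c, a subunit that brings protein phosphatase 1 to glycogen, had 3.52, 8.74, 6.28 and 2.18 CPM against 42.4, 35.2, 24.96 and 18.96 CPM (log2 fold change -2.56, SE 0.43, adjusted p = 0.00244). Ppp1r3b, the liver form of that subunit, had 13.2, 29.1, 15.8 and 19.7 CPM against 130.4, 130.4, 107 and 86.9 CPM (log2 fold change -2.55, SE 0.24, adjusted p = 2.9e-05). All 3 were apart between the groups, and a related subunit, Ppp1r3g, was higher by 3.44 (adjusted p = 0.0161), or by 4.32 without Rab30 L-/- replicate 3.

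Fbp1 (-2.11, adjusted p = 2.0e-05) and G6pc (-1.48, adjusted p = 0.00122), the enzymes of the last steps to glucose, were lower in Cpt2 L-/-, while Pck1, which commits oxaloacetate to the pathway, did not pass (-0.35, adjusted p = 0.148).

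Genes of the urea cycle and amino acid breakdown were lower in Cpt2 L-/- almost throughout. Of 40 genes tested, 33 were lower and none higher in Cpt2 L-/- (82.5%), with a median log2 fold change of -1.10. In the urea cycle the differences were -1.97 for Otc, -1.84 for Ass1 and -1.53 for Asl, all past the thresholds, while Cps1, the entry enzyme, did not pass (-0.43, adjusted p = 0.117). In the tryptophan pathway Haao and Kynu, which lead from kynurenine towards NAD, were lower by -2.22 and -1.33, beside Acmsd (-4.93). Mat1a, which makes S-adenosylmethionine and is among the most abundant genes that passed, had 7007, 9161, 8342 and 7336 CPM against 12428, 15482, 16061 and 14552 CPM (log2 fold change -0.88, SE 0.15, adjusted p = 9.7e-04, edgeR), with the 2 groups apart. The median log2 difference of the list from ff;ff was -1.04 for Cpt2 L-/- and -0.08 for Rab30 L-/-.

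The Atf4 programme, which cells use when mitochondria fail or amino acids run short, was divided. Of 34 genes tested, 10 were higher and 3 lower (38.2%, against 31.4% of all genes, median 0.25). Nupr1, a small stress-induced chromatin protein, had 12.4, 19.3, 26.6 and 15.2 CPM in Cpt2 L-/- and 0.377, 0.412, 3.14 and 0.455 CPM in Rab30 L-/- (log2 fold change 3.85, SE 0.63, adjusted p = 0.0024, edgeR). Psat1, an enzyme of serine synthesis, had 4.800, 11.5, 7.83 and 7.17 CPM against 0.603, 0.247, 1.09 and 0.152 CPM (log2 fold change 3.74, SE 0.46, adjusted p = 1.1e-04). Atf3, a stress-induced transcription factor, had 17.3, 16.5, 13.2 and 16.7 CPM against 0.453, 1.98, 3.18 and 0.682 CPM (log2 fold change 3.25, SE 0.45, adjusted p = 5.1e-04). All Cpt2 L-/- libraries were above all Rab30 L-/- libraries, of which replicate 3 was the highest each time. Without that replicate the log2 fold changes were 5.42, 4.49 and 3.94. Nupr1 and Psat1 could be tested only through their level in Cpt2 L-/-.

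The hormones Fgf21 and Gdf15 were higher by 3.07 and 2.75 on the log2 scale (adjusted p = 0.00121 and 5.5e-05). The lower members were Cth, which makes cysteine from cystathionine, with 142, 151, 105 and 72.8 CPM in Cpt2 L-/- and 1051, 1154, 1211 and 899 CPM in Rab30 L-/- (log2 fold change -3.20, SE 0.23, adjusted p = 1.9e-06, edgeR), its partner Cbs (-1.19, adjusted p = 3.0e-04) and the transporter Slc38a2 (-0.44). Slc38a2 overlapped between the groups and kept its call only without Rab30 L-/- replicate 2, with an adjusted p of 0.0543 to 0.124 when another library was left out.

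Atf4 binds with C/EBP partners to a short composite element, and 5 promoters that hold it are shown because they belong to genes of this comparison on both sides of 0. Nupr1, Atf3 and Fgf21 were higher in Cpt2 L-/-, and the aminotransferase gene Got1 (-1.48, adjusted p = 1.2e-04) and G6pc were lower. Each is RefSeq sequence of build GRCm38.p6, from 250 bases before to 50 bases after the start of the gene, 5′ to 3′ on the strand of the gene, and the capitals mark the match to TGATGNAAN, which in all 5 was on the opposite strand. The 9 capitals begin at base 140 of the Nupr1 and Atf3 windows, 111 of Fgf21, 148 of Got1 and 112 of G6pc. The windows are chr7:126625421-126625720 for Nupr1, chr1:191183284-191183583 for Atf3, chr7:45615441-45615740 for Fgf21 and chr19:43524556-43524855 for Got1, all on the minus strand, and chr11:101367466-101367765 for G6pc on the plus strand.
Nupr1: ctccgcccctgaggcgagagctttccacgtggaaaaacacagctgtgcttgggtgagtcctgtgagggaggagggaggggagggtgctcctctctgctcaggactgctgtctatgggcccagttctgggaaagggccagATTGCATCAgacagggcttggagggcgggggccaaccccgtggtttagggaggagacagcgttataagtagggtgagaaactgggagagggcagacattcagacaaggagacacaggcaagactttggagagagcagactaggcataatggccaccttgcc
Atf3: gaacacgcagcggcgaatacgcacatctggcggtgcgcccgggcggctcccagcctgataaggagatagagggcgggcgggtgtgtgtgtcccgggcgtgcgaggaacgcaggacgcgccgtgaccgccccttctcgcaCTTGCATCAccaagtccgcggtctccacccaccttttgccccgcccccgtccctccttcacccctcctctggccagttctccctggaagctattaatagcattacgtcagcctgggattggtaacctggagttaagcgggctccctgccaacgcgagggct
Fgf21: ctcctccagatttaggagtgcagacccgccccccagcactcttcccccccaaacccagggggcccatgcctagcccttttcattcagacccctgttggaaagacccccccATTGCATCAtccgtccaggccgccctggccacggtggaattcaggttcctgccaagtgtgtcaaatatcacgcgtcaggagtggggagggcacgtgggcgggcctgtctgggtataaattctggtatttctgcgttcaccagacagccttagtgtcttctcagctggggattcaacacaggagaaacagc
Got1: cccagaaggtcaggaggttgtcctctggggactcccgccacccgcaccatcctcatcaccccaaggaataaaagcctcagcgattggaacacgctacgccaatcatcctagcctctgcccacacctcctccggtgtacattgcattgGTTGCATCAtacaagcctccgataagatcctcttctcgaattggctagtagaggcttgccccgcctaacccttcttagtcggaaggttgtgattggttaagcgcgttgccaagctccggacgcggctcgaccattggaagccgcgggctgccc
G6pc: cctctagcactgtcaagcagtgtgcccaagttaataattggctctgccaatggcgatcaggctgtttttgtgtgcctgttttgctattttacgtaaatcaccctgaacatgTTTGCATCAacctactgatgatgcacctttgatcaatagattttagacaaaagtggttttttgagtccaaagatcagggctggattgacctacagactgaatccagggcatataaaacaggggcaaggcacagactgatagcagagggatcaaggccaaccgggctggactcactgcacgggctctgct

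Promoters of this kind could be matched by symbol for 1573 of the genes higher in Cpt2 L-/- and 1563 of those lower. TGATGNAAN was found on either strand in 53 of the higher (3.37%) and in 59 of the lower (3.77%), beside 2.75% of the 9866 promoters of genes tested and 3.95% of all 32851 promoters of that length. The Pparα element, 2 copies of AGGTCA on one strand with any 1 base between them, was found in 2 promoters of higher genes, Ranbp17 and Igsf23, in none of the lower, in 0.071% of those of genes tested and in 0.0396% of all promoters. The C/EBP sequences TTATGCAAT and TTGCGCAAT, neither of which can match TGATGNAAN in full though they may share bases with it, were found on either strand in 1 promoter of the higher genes, that of Rras2, and in 5 of the lower, those of Akr1d1, C9, Slc1a2, Gm16573 and Pbld2, beside 0.203% of those of genes tested and 0.161% of all promoters. These are matches of letters within 300 bases and say nothing of binding there or elsewhere.

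ER chaperones and the unfolded protein response gave 14 lower and 1 higher of 26 (57.7%, median -0.59). Edem1, which sends misfolded glycoproteins to degradation, had 66.1, 83.3, 68.8 and 70.2 CPM in Cpt2 L-/- and 170.2, 165, 139.6 and 161 CPM in Rab30 L-/- (log2 fold change -1.15, SE 0.13, adjusted p = 3.4e-05, edgeR). The higher member was Eif2ak3, the ER stress kinase upstream of Atf4, with 39.4, 30.4, 32.3 and 32.9 CPM against 23.8, 13.7, 13.1 and 14.9 CPM (log2 fold change 1.04, SE 0.19, adjusted p = 0.00146). Neither overlapped between the groups. Hspa5, the main ER chaperone, did not pass (-0.56, adjusted p = 0.141). The secreted factor Manf (-1.17) lost its call without Cpt2 L-/- replicate 1, 2 or 4 or Rab30 L-/- replicate 4 (adjusted p 0.0839, 0.0788, 0.0922 and 0.0564), and Sdf2l1 (-2.14) without Cpt2 L-/- replicate 1, 2 or 4 (0.0589, 0.0620 and 0.0787), with a log2 fold change of -1.46 without Rab30 L-/- replicate 1.

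Nrf2 targets and glutathione enzymes, which answer oxidants, gave 16 higher and 4 lower of 31 tested (64.5%, median 0.63). Cbr3, a carbonyl reductase, had 8.96, 7.797, 11.3 and 9.11 CPM in Cpt2 L-/- and 0.528, 0.165, 0.628 and 0.455 CPM in Rab30 L-/- (log2 fold change 4.29, SE 0.30, adjusted p = 1.6e-06, edgeR). Srxn1, which repairs oxidized peroxiredoxins, had 316, 402, 418 and 376 CPM against 63.1, 59.2, 64.3 and 45.7 CPM (log2 fold change 2.70, SE 0.15, adjusted p = 3.4e-07). Gsta1, a glutathione transferase with close paralogs, had 4.67, 3.65, 3.75 and 2.74 CPM against 0.0754, 0.0824, 0.545 and 0.0758 CPM (log2 fold change 3.92, SE 0.50, adjusted p = 1.1e-04), and 5.41 without Rab30 L-/- replicate 3. All Cpt2 L-/- libraries were higher. Cbr3 and Gsta1 could be tested only through their level in Cpt2 L-/-. Of the lower members, Gsta4 had -1.68, Gsta3 -0.82 and Osgin1 -1.31. Osgin1 overlapped between the groups and lost its call without Cpt2 L-/- replicate 2, 3 or 4 or Rab30 L-/- replicate 4 (adjusted p 0.0832, 0.0922, 0.0791 and 0.0697). Nfe2l2, which encodes Nrf2, did not pass (0.35, adjusted p = 0.114).

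The plasma proteins that hepatocytes secrete were lower in Cpt2 L-/- across several families. In the complement system, 26 of 33 genes tested were lower and none higher (78.8%, median -1.32). C4a, a copy of the complement component C4, had 3.71, 6.67, 13.8 and 10.7 CPM in Cpt2 L-/- and 111, 177, 46.03 and 102 CPM in Rab30 L-/- (log2 fold change -3.65, SE 0.54, adjusted p = 0.00199, edgeR), and may share reads with C4b. Mbl2, a lectin that starts the cascade on sugars, had 47.7, 39.2, 47.2 and 34.99 CPM against 256, 241, 330.5 and 295 CPM (log2 fold change -2.74, SE 0.15, adjusted p = 3.4e-07). C8a, a subunit of the membrane attack complex, had 154, 166, 212 and 185 CPM against 639, 991, 414 and 775 CPM (log2 fold change -1.99, SE 0.24, adjusted p = 8.0e-05). None overlapped between the groups, and C1s2, a second copy of a C1 protease, had 2 counts in the Cpt2 L-/- group and a count ratio, Rab30 L-/- over Cpt2 L-/-, of 296 (95% counting interval 81.5 to 2450.0), both counts lying in replicate 3, with a fitted log2 fold change of -7.93, or -10.24 without that library. DKO kept 5.65, 6.64, 2.47 and 5.77 CPM of C1s2. Rab30 Ctrl had 0, 12.1, 15.1 and 18.5 CPM and Rab30KO 19.2, 8.11, 19.9 and 0.129 CPM, so single libraries of other genotypes also nearly lacked it. The cause was not tested. C3, the component on which all routes converge, was lower by -1.30 (adjusted p = 0.00208).

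For coagulation and fibrinolysis, 23 of 32 were lower and 1 higher (75%, median -1.02). Serpind1, heparin cofactor II, had 93.96, 95.8, 64.4 and 43.1 CPM in Cpt2 L-/- and 549, 651, 575 and 603 CPM in Rab30 L-/- (log2 fold change -3.00, SE 0.24, adjusted p = 4.5e-06, edgeR). F11, coagulation factor XI, had 11.1, 15.8, 11.6 and 10.2 CPM against 69.2, 45.5, 43.9 and 71.4 CPM (log2 fold change -2.25, SE 0.21, adjusted p = 1.4e-05). Proz, a cofactor for the inhibition of factor Xa, had 64.3, 69.5, 58.5 and 54.3 CPM against 298, 458, 406 and 426 CPM (log2 fold change -2.69, SE 0.16, adjusted p = 4.4e-07). Every Cpt2 L-/- library was lower for the 3. The fibrinogen chains Fga, Fgb and Fgg were lower by -1.94, -2.06 and -2.21.

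Acute-phase and carrier proteins were lower as well, with 32 of 39 lower and none higher (82.1%, median -1.74). Hpx, which binds free heme, had 1202, 1627, 2264 and 1914 CPM in Cpt2 L-/- and 6901, 14870.4, 5065 and 5304 CPM in Rab30 L-/- (log2 fold change -2.21, SE 0.36, adjusted p = 0.00126, edgeR). Serpina6, the corticosteroid carrier, had 6.91, 2.89, 4.33 and 3.805 CPM against 60.04, 113, 286 and 84.6 CPM (log2 fold change -4.92, SE 0.61, adjusted p = 8.9e-04), and -4.27 without Rab30 L-/- replicate 3. Alb, albumin, had 34561, 27662, 36350.2 and 27729 CPM against 63736, 52499.6, 56717 and 63726 CPM (log2 fold change -0.91, SE 0.16, adjusted p = 0.00115). All 4 Rab30 L-/- libraries were above all 4 Cpt2 L-/- libraries for these. Trf, transferrin, was lower by -1.75 and Serpina1a, an α1-antitrypsin with near-identical neighbours, by -1.68.

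The serum amyloid genes spread widely within Rab30 L-/-. Saa1 had 583, 3125, 52.4 and 89.7 CPM there against 1.15, 4.84, 12.2 and 5.801 CPM in Cpt2 L-/- (log2 fold change -7.34, SE 1.80, adjusted p = 0.0244, edgeR), and Saa2, a close paralog, had 260.1, 2477, 11.9 and 18.2 CPM against 0.704, 1.57, 2.52 and 1.497 CPM (log2 fold change -8.78, SE 2.29, adjusted p = 0.0304). The groups did not overlap, but Rab30 L-/- replicate 2 was far above the other 3. Without it the log2 fold changes were -5.37 and -5.96, and without any one Cpt2 L-/- library both calls were lost, with adjusted p between 0.0508 and 0.0742 for Saa1 and between 0.0727 and 0.0870 for Saa2.

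The same families can be set beside ff;ff. The median log2 difference from ff;ff was -0.92 for Cpt2 L-/- and 0.40 for Rab30 L-/- for complement, -0.84 for Cpt2 L-/- and 0.29 for Rab30 L-/- for coagulation and -1.18 for Cpt2 L-/- and 0.43 for Rab30 L-/- for the acute-phase list. The calls against ff;ff were all on the Cpt2 L-/- side for complement (21 lower there, 0 higher in Rab30 L-/-) and for the acute-phase list (29 and 0). Over all genes tested, 23.8% passed in Cpt2 L-/- and 0.479% in Rab30 L-/-, so a count of 0 in Rab30 L-/- is near its background. The medians of Rab30 L-/- above 0 thus came without a single member past the thresholds in that comparison.

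**Figure D4:**
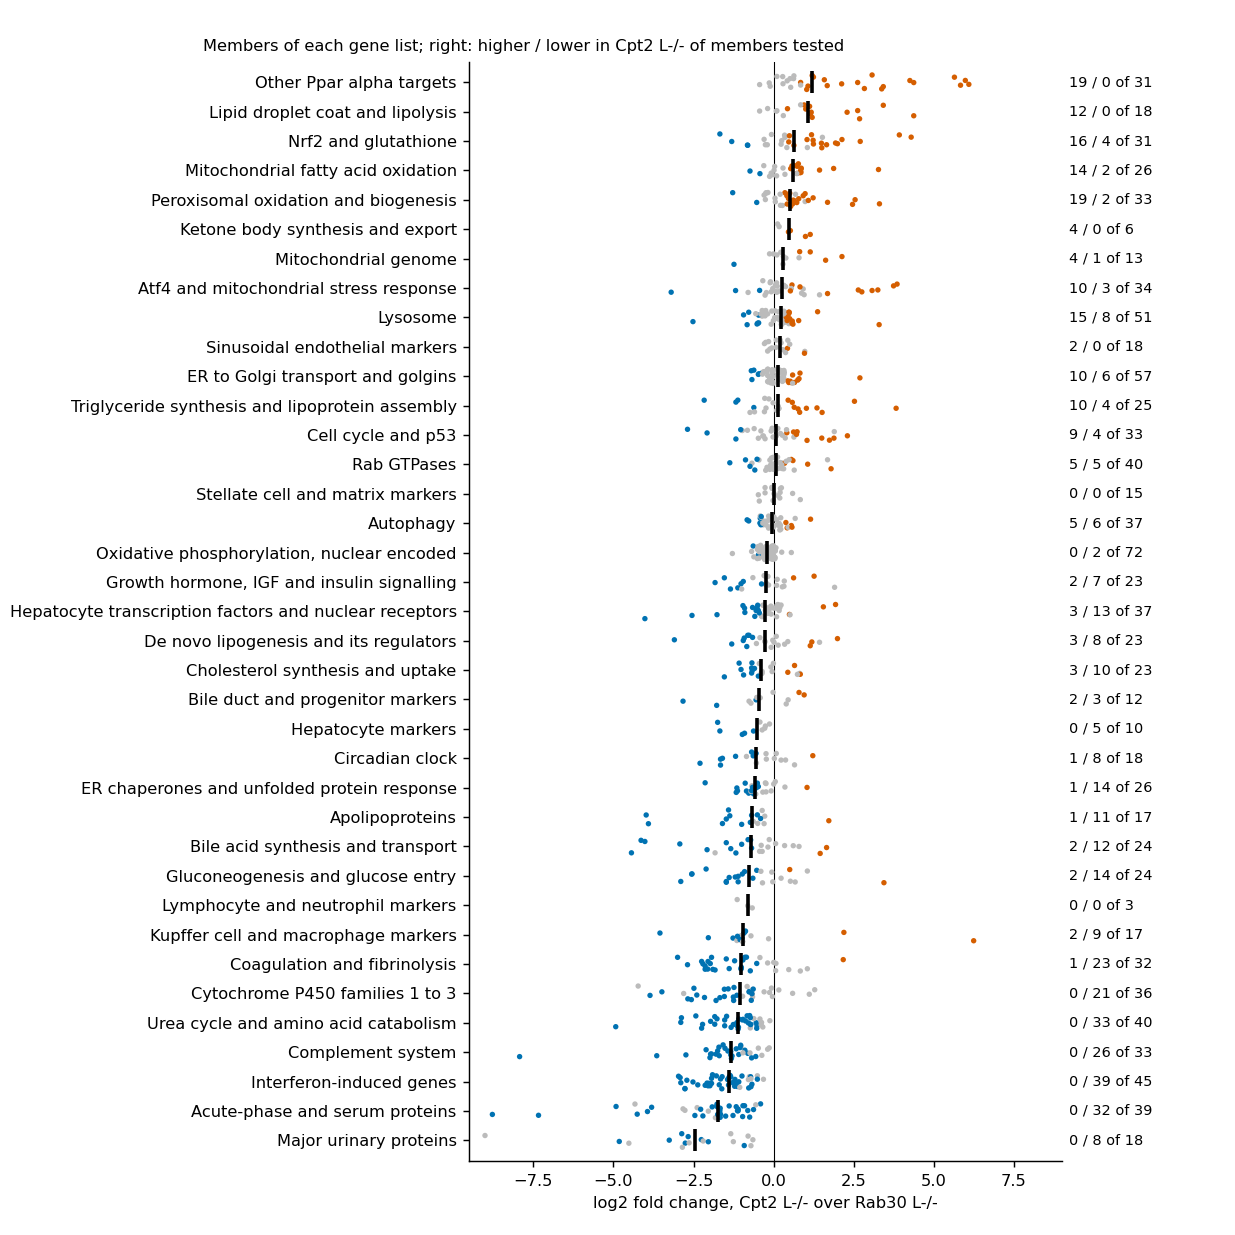
Log2 fold changes, Cpt2 L-/- over Rab30 L-/-, of the tested members of each gene list, with members past the thresholds in colour and the list median marked. Pparα targets and lipid droplet genes lay mostly above 0, and acute-phase, interferon, complement, urea cycle and P450 genes mostly below.

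The major urinary proteins, pheromone carriers under growth hormone control, had 8 lower and no higher members of 18 (44.4%, median -2.45), with reads that near-identical copies share. Mup3, the most distinct of the copies named, had 2228, 2086, 3924 and 3114 CPM in Cpt2 L-/- and 7607, 4591, 4329.9 and 4767 CPM in Rab30 L-/- (log2 fold change -0.92, SE 0.24, adjusted p = 0.012, edgeR), without overlap. Mup1 and Mup2 were lower by -3.26 and -2.87, and the latter had -3.62 without Cpt2 L-/- replicate 4. Mup9 (-4.82) and Mup12 (-2.26) overlapped between the groups and kept their calls only without Rab30 L-/- replicate 3, with adjusted p up to 0.127 and 0.104 when another library was left out. Without Rab30 L-/- replicate 1 they had -4.08 and -1.48, and Mup9 had -5.70 without Cpt2 L-/- replicate 2.

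In growth hormone, IGF and insulin signalling, 2 of 23 genes were higher and 7 lower (39.1%, median -0.25). Igfals, which stabilizes IGF1 in blood, had 32.9, 26.8, 26.7 and 28.1 CPM in Cpt2 L-/- and 73.4, 149.9, 89.3 and 94.3 CPM in Rab30 L-/- (log2 fold change -1.83, SE 0.20, adjusted p = 3.7e-05, edgeR), and Igfbp4, an IGF binding protein, had 969, 996, 1028 and 897 CPM against 2259, 2471, 2473 and 2694 CPM (log2 fold change -1.35, SE 0.13, adjusted p = 1.6e-05). Socs3, a feedback inhibitor of cytokine receptors, had 6.401, 6.73, 8.86 and 6.36 CPM against 13.7, 30.6, 18.1 and 20.2 CPM (log2 fold change -1.54, SE 0.22, adjusted p = 2.9e-04). Each was lower in all Cpt2 L-/- libraries. The receptor Ghr and the hormone Igf1 were lower by -1.12 and -1.02. Of the higher members, Igfbp1 (1.26) kept its call only without Rab30 L-/- replicate 2 or 3 (adjusted p up to 0.0942 when another library was left out) and Igf2r (0.62), with overlapping groups, lost its call without Rab30 L-/- replicate 4 (0.0502).

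Of 18 clock genes, 1 was higher and 8 were lower in livers taken after the same fast (50%, median -0.54). Nfil3, a repressor in the output of the clock, had 2.94, 4.02, 7.44 and 4.99 CPM in Cpt2 L-/- and 20.3, 38.7, 15.4 and 20.9 CPM in Rab30 L-/- (log2 fold change -2.30, SE 0.34, adjusted p = 7.3e-04, edgeR). Cry1, a repressor of the core loop, was lower by -1.66, and Bhlhe41 was the higher member (1.22). The groups did not overlap for any of the 3.

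Hepatocyte transcription factors and nuclear receptors gave 13 lower and 3 higher of 37 (43.2%, median -0.26). Onecut1, a factor of liver development, had 2.43, 5.47, 1.04 and 2.18 CPM in Cpt2 L-/- and 5.88, 20.1, 21.6 and 17.6 CPM in Rab30 L-/- (log2 fold change -2.55, SE 0.54, adjusted p = 0.00788, edgeR). Esr1, the estrogen receptor, had 9.22, 11.5, 16.1 and 9.73 CPM against 21.8, 48.7, 48.8 and 38.4 CPM (log2 fold change -1.77, SE 0.26, adjusted p = 4.8e-04). Pparg, the lipid-storing relative of Pparα, had 24.4, 15.3, 23.4 and 19.02 CPM against 4.53, 5.93, 5.82 and 5.16 CPM (log2 fold change 1.93, SE 0.18, adjusted p = 9.9e-06). These groups did not overlap. Cebpa, a main activator of hepatocyte genes, was lower by -0.90, while Hnf4a did not pass (-0.26, adjusted p = 0.365). Rxrb (0.49), which overlapped between the groups, kept its call only without Cpt2 L-/- replicate 2 or Rab30 L-/- replicate 3, with an adjusted p of 0.0872 to 0.125 when another library was left out.

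The Rab GTPases other than Rab30 are the family closest to the gene deleted on one side. Of 40 tested, 5 were higher and 5 lower (25%, near the 31.4% of all genes), with a median of 0.07. Rab34, a Rab of the Golgi and of lysosome positioning, had 16.4, 20.5, 21.5 and 18.6 CPM in Cpt2 L-/- and 7.54, 4.45, 5.65 and 4.398 CPM in Rab30 L-/- (log2 fold change 1.79, SE 0.19, adjusted p = 2.6e-05, edgeR). Rab9, which works between late endosomes and the Golgi, had 68.4, 65.6, 87.1 and 71.7 CPM against 42.5, 30.7, 36.7 and 29.5 CPM (log2 fold change 1.06, SE 0.14, adjusted p = 1.7e-04), and Rab1a, which works between the ER and the Golgi, had 204, 251, 256 and 237 CPM against 168, 153, 174 and 129 CPM (log2 fold change 0.60, SE 0.13, adjusted p = 0.00432). All 3 were higher in every Cpt2 L-/- library. Rab3a and Rab29 were lower by -1.37 and -0.88, and Rab23 (-0.74) overlapped between groups and kept its call only without Cpt2 L-/- replicate 2 or Rab30 L-/- replicate 1 or 3 (adjusted p 0.0617 to 0.131 otherwise).

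For transport between the ER and the Golgi and the golgins, 10 of 57 genes were higher and 6 lower (28.1%, median 0.14). Kdelr3, a receptor that returns ER proteins from the Golgi, had 0.9601, 0.692, 1.16 and 1.12 CPM in Cpt2 L-/- and 0.0754, 0.165, 0.126 and 0.227 CPM in Rab30 L-/- (log2 fold change 2.69, SE 0.47, adjusted p = 9.7e-04, edgeR). It had 62 counts in all over Cpt2 L-/- and 9 over Rab30 L-/-, and could be tested only through its level in Cpt2 L-/-. Arf4 and Sec24d, of vesicle coats, were higher by 0.82 and 0.79, and the cargo receptors Lman1 and Lman2 were lower by -0.70 and -0.68, Lman1 with 157, 171, 152 and 144 CPM against 272, 255, 252 and 227 CPM (adjusted p = 8.2e-04). Kdelr3 and Lman1 did not overlap between the groups. Outside Kdelr3, no member past the thresholds exceeded 0.82 in size on the log2 scale.

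Among lysosomal genes, 15 of 51 were higher and 8 lower (45.1%, median 0.24). Cd63, a tetraspanin of late endosomes, had 15.9, 24.3, 33.9 and 23.95 CPM in Cpt2 L-/- and 2.64, 1.65, 3.43 and 1.97 CPM in Rab30 L-/- (log2 fold change 3.29, SE 0.27, adjusted p = 5.4e-06, edgeR). Lipa, the acid lipase that frees fatty acids from engulfed droplets, had 423, 427, 488 and 487 CPM against 187, 188, 191 and 135 CPM (log2 fold change 1.37, SE 0.14, adjusted p = 2.5e-05). Ctsc, a cathepsin encoded in the 5 Mb beside Rab30, had 24.6, 14.8, 23.03 and 17.4 CPM against 102, 181, 66.4 and 106 CPM (log2 fold change -2.52, SE 0.30, adjusted p = 2.4e-04). The groups were apart for the 3. Subunits of the proton pump were among the higher genes, with Atp6v1h at 0.78. Ctss (-0.83), a cathepsin of macrophages, overlapped between groups and kept its call only without Cpt2 L-/- replicate 3 or Rab30 L-/- replicate 1 or 4 (adjusted p 0.0676 to 0.0969 otherwise).

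The autophagy list was near the background, with 5 higher and 6 lower of 37 (29.7%, median -0.04). Sqstm1, the cargo receptor that is also an Nrf2 target, had 1117, 948, 1322 and 1084 CPM in Cpt2 L-/- and 499, 512, 586 and 405 CPM in Rab30 L-/- (log2 fold change 1.15, SE 0.15, adjusted p = 1.5e-04, edgeR), without overlap, and Optn, a further receptor, was higher by 0.57. Atg101, part of the initiating kinase complex, was lower by -0.83 and Tfeb, which drives lysosomal genes, by -0.78. None of the 4 lost its call when 1 library was left out.

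Few respiratory chain genes of the nucleus passed. Of 72 tested, 0 were higher and 2 lower (2.78%, median -0.20), a smaller share than the 31.4% of all genes. Sdhb, of succinate dehydrogenase, had 118, 144, 162 and 117 CPM in Cpt2 L-/- and 209, 195, 239 and 193 CPM in Rab30 L-/- (log2 fold change -0.64, SE 0.14, adjusted p = 0.00364, edgeR), without overlap. The other, Ndufs8 (-0.48), overlapped between groups and lost its call without Cpt2 L-/- replicate 1, 2 or 4 or Rab30 L-/- replicate 2 (adjusted p 0.0631, 0.0552, 0.0840 and 0.0628).

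Genes of the mitochondrial genome, which are transcribed as one long precursor, did not move together. Of 13, 4 were higher and 1 lower (38.5%, against 31.4% of all genes tested, median 0.30). mt-Atp6 had 290.3, 275, 663 and 133 CPM in Cpt2 L-/- and 77.1, 75.6, 96.1 and 59.8 CPM in Rab30 L-/- (log2 fold change 2.13, SE 0.44, adjusted p = 0.00754, edgeR), mt-Co3 was higher by 1.62, and mt-Nd3 had 2.304, 4.402, 4.53 and 3.68 CPM against 8.22, 7.498, 10.2 and 9.02 CPM (log2 fold change -1.24, SE 0.22, adjusted p = 0.00123). The groups were apart for these, whereas mt-Co2 (1.14) overlapped and lost its call without Cpt2 L-/- replicate 4 or Rab30 L-/- replicate 1, 2 or 4 (adjusted p 0.0637 to 0.0765). For mt-Atp6 the log2 difference from ff;ff was 0.95 (adjusted p = 0.116) in Cpt2 L-/- and -1.17 (adjusted p = 0.00921) in Rab30 L-/- (edgeR). Only that of Rab30 L-/- passed. The means of mt-Atp6 were 173 CPM in ff;ff, 170 in DKO, 217 in Rab30KO and 186 in Rab30 Ctrl. The call of mt-Nd3 was lost in the fit over all 24 libraries. Mitochondrial genes took 6.10% to 7.32% of all counts in Cpt2 L-/- and 4.31% to 4.86% in Rab30 L-/-, and the part of this share in the differences was not tested.

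Cell cycle and p53 genes gave 9 higher and 4 lower of 33 (39.4%, median 0.08). E2f8, a repressor of the cycle that is active in polyploid hepatocytes, had 25.1, 24.02, 17.1 and 25.1 CPM in Cpt2 L-/- and 4.15, 5.77, 4.48 and 4.17 CPM in Rab30 L-/- (log2 fold change 2.30, SE 0.18, adjusted p = 3.4e-06, edgeR). Birc5, survivin, a gene of mitosis, had 0.6401, 0.503, 0.259 and 0.499 CPM against 3.85, 2.801, 1.84 and 4.02 CPM (log2 fold change -2.69, SE 0.39, adjusted p = 2.5e-04). Rrm2, a ribonucleotide reductase subunit of S phase, had 0.704, 2.52, 0.906 and 0.686 CPM against 6.11, 3.95, 2.89 and 7.58 CPM (log2 fold change -2.08, SE 0.46, adjusted p = 0.00514), and -2.75 without Cpt2 L-/- replicate 2. Each of the 3 was apart between the groups. Mcm4, of the replication helicase, was higher by 1.04. Eda2r, a p53 target, was higher by 1.74. Gadd45b (1.88) and Gadd45g (-1.18) passed narrowly. Gadd45b kept its call only without Rab30 L-/- replicate 1 (2.47) or 2, and Gadd45g, with overlapping groups, only without Cpt2 L-/- replicate 2 or Rab30 L-/- replicate 2 or 4, with adjusted p up to 0.0837 and 0.105 otherwise.

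Interferon-induced genes formed the list with the largest share past the thresholds in this comparison. Of 45 tested, 39 were lower and none higher in Cpt2 L-/- (86.7%, median -1.41). Ifit1, which binds foreign RNA, had 1.41, 1.45, 2.26 and 1.93 CPM in Cpt2 L-/- and 6.34, 14.9, 16.4 and 17.6 CPM in Rab30 L-/- (log2 fold change -2.97, SE 0.31, adjusted p = 3.1e-05, edgeR). Ifi47, a GTPase induced by interferon γ, had 2.37, 4.78, 6.73 and 4.304 CPM against 27.4, 43.2, 35.7 and 31.02 CPM (log2 fold change -2.92, SE 0.26, adjusted p = 1.5e-05). Gbp10, a guanylate-binding protein, had 0.3200, 0.189, 0.194 and 0.187 CPM against 1.06, 1.48, 2.93 and 1.21 CPM (log2 fold change -2.90, SE 0.47, adjusted p = 5.7e-04). Every Cpt2 L-/- library was below every Rab30 L-/- library for the 3. The same genes in ff;ff had 9.69, 5.02, 1.46 and 5.58 CPM for Ifit1, 13.6, 13.1, 3.62 and 9.83 CPM for Ifi47 and 0.524, 0.354, 0.348 and 0.698 CPM for Gbp10.

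Against ff;ff the interferon list had fewer members past the thresholds than in the direct comparison. The median log2 difference of the list from ff;ff was -0.62 for Cpt2 L-/- and 0.87 for Rab30 L-/-, and 9 of 41 members tested were lower in Cpt2 L-/- (where 23.8% of all genes passed in either direction) and 2 of 44 higher in Rab30 L-/- (0.479% of all genes). The interferon-induced GTPase genes Tgtp1 and Tgtp2, near-identical neighbours, were among the lowest genes of all, at -4.63 and -4.57 (adjusted p = 1.3e-04 and 3.8e-04). For Tgtp2 the log2 difference of Rab30 L-/- from ff;ff was 3.32 (adjusted p = 0.0302). For Tgtp1 it was 2.01 (adjusted p = 0.168), and -2.62 (adjusted p = 0.00135) in Cpt2 L-/-. Rab30KO libraries ranged widely, with 159, 2.96, 287 and 3.62 CPM of Tgtp1 and 77.0, 1.21, 151 and 1.49 CPM of Tgtp2. Interferon-induced genes are also expressed by macrophages and lymphocytes, and the summed CPM of 20 lymphocyte and neutrophil markers was 9.68 to 15.1 in Cpt2 L-/- and 13.5 to 44.3 in Rab30 L-/-, with 1 marker at 0 in all 8 libraries and 3 expressed enough to be tested. The part of these cells in the interferon result was not tested.

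Markers of the cells of the liver were read as checks of tissue. Hepatocyte markers were the most abundant by far, with a summed CPM of 57012 to 69337 in Cpt2 L-/- and 93579 to 112921 in Rab30 L-/-, so the groups did not overlap and 5 of 10 markers were lower in Cpt2 L-/- with none higher. The lower ones were secreted proteins and the aminotransferase Tat (-0.98), while Hnf4a, Cps1, Apoa1, Apob and Cyp2e1 did not pass (Apob with the exception given above). In bulk RNA fewer cells of a type and less RNA of a gene per cell cannot be told apart.

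Of 17 Kupffer cell and macrophage markers tested, 2 were higher and 9 lower (64.7%, median -0.97). Timd4, a receptor of resident Kupffer cells, had 2.82, 2.01, 3.49 and 2.18 CPM in Cpt2 L-/- and 5.51, 21.2, 10.01 and 6.67 CPM in Rab30 L-/- (log2 fold change -2.04, SE 0.41, adjusted p = 0.00364, edgeR). Cd68, a lysosomal protein of macrophages, had 28.5, 40.6, 48.4 and 30.3 CPM against 5.28, 10.4, 9.59 and 6.82 CPM (log2 fold change 2.19, SE 0.23, adjusted p = 3.1e-05), and so moved with Gpnmb and Cd63, opposite to Timd4. Timd4 and Cd68 had no overlap between the groups. Clec4f, confined to Kupffer cells, was lower by -0.93 (adjusted p = 0.0105). Marco (-3.55) overlapped between groups and kept its call only without Rab30 L-/- replicate 1 or 4 (adjusted p 0.0901 to 0.126 otherwise), with -2.79 without Rab30 L-/- replicate 2. Cd5l (-1.27) kept its call only without Rab30 L-/- replicate 1, 2 or 4 (0.0518 to 0.0909 otherwise). The summed CPM of the 18 markers was 268 to 392 in Cpt2 L-/- and 321 to 893 in Rab30 L-/-, which overlap, and no marker was at 0 in all 8 libraries.

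Few markers of stellate and endothelial cells passed. No stellate marker of 15 tested passed (median 0.01), and their summed CPM was 539 to 566 in Cpt2 L-/- and 503 to 559 in Rab30 L-/-. Of 18 sinusoidal endothelial markers, 2 were higher, Rspo3 (0.96) and Oit3 (0.43), the latter without its call when Cpt2 L-/- replicate 1 or 2 or Rab30 L-/- replicate 4 was left out (adjusted p 0.0566, 0.0640 and 0.0652).

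Bile duct and progenitor markers divided, with 2 higher and 3 lower of 12 (41.7%, against 31.4% of all genes tested, median -0.47). Sox9, a factor of ducts and periportal cells, had 0.576, 1.698, 0.712 and 0.936 CPM in Cpt2 L-/- and 9.58, 8.82, 3.81 and 5.99 CPM in Rab30 L-/- (log2 fold change -2.83, SE 0.39, adjusted p = 2.0e-04, edgeR), and Cdh1, E-cadherin, which periportal hepatocytes also make, had 11.3, 23.5, 11.2 and 12.2 CPM against 42.1, 31.5, 58.4 and 67.4 CPM (log2 fold change -1.78, SE 0.31, adjusted p = 0.00221). The keratins Krt8 and Krt18, which hepatocytes and duct cells share, were higher by 0.95 and 0.79. The groups were apart for all 4. The summed CPM of the list, on which the most abundant markers weigh most, was 593 to 829.6 in Cpt2 L-/- against 409 to 518 in Rab30 L-/-. The sum thus ran opposite to the median log2 fold change of the list, which was below 0. The part of any of these cell types in the differences of other genes was not tested.

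Per length, the most abundant genes past the thresholds can be compared with each other in the deposited FPKM. Alb had a mean of 13638 FPKM in Cpt2 L-/- and 25472 FPKM in Rab30 L-/-, Apoe 4796 and 7871, and Apoa2 4432 and 7083. Serpina3k, a serine protease inhibitor with close paralogs, had 2258 and 5020.1 FPKM, and Hpx had 1181 and 5406. Cyp4a14 reached 5408 FPKM in Cpt2 L-/- from 1791 in Rab30 L-/-, which put a fatty acid hydroxylase at the level of a plasma protein such as Hpx in Rab30 L-/-.

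The regions around the floxed genes were read for neighbours. Within 5 Mb of Rab30 on chromosome 7, 7 of 37 genes tested were higher and 5 lower (32.4% past the thresholds), and within 5 Mb of Cpt2 on chromosome 4, 9 of 55 were higher and 7 lower (29.1%), both shares close to the 31.4% of all genes. Beside Rab30, Picalm, a clathrin adaptor, had 366, 334, 316 and 356 CPM in Cpt2 L-/- and 171, 142, 132 and 134 CPM in Rab30 L-/- (log2 fold change 1.24, SE 0.13, adjusted p = 3.2e-05, edgeR), next to Thrsp and Ctsc. The DKO libraries, whose label gives them the deleted Rab30 allele as well, had 392 to 457 CPM of Picalm and 21.8 to 33.8 CPM of Ctsc, beside 181 ± 19.4 and 67.4 ± 30.9 CPM in ff;ff (SD, n = 4), so for Picalm, Ctsc and Thrsp all 4 DKO libraries lay on the Cpt2 L-/- side of every Rab30 L-/- library. The log2 difference of Rab30 L-/- from ff;ff was -0.33 (adjusted p = 0.439) for Picalm, 0.75 (adjusted p = 0.483) for Ctsc and 0.32 (adjusted p = 0.738) for Thrsp. Beside Cpt2, Ttc39a had 7.81, 16.2, 13.6 and 13.4 CPM against 0.528, 4.86, 4.398 and 2.43 CPM (log2 fold change 2.04, SE 0.49, adjusted p = 0.0126), and Gm12715 and C8a had log2 fold changes of 2.05 and -1.99. Libraries of the 2 groups did not overlap for these genes, and beside Cpt2, where DKO carries the same allele as Cpt2 L-/-, effects of the allele in cis cannot be told apart from other causes.

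To place the other groups on the axis between the 2 knockouts, each gene past the thresholds was given a position, 0 at the mean log2 CPM of Rab30 L-/- and 1 at that of Cpt2 L-/-. Over the 4192 genes the median position of ff;ff was 0.17 (0.08 to 0.20 over its 4 libraries), with 81.2% of genes nearer to Rab30 L-/-. DKO had 0.84 (0.70 to 0.94), with 81.4% nearer to Cpt2 L-/-. Rab30 Ctrl had 0.04 and Rab30KO 0.05. Since the genes and the ends of the axis were chosen on the 8 libraries, positions are a description without a test. The livers that lack Cpt2 by their labels lay towards 1, and those of the other 3 groups lay near 0.

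**Figure D5:**
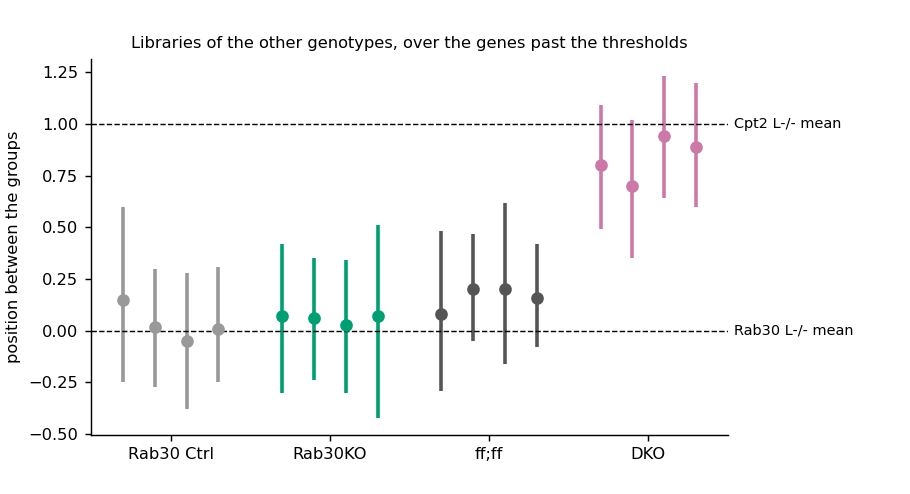
Median position of each library of the other 4 groups over the 4192 genes past the thresholds, from 0 (mean of Rab30 L-/-) to 1 (mean of Cpt2 L-/-). The 4 DKO libraries lay between 0.70 and 0.94, and the 12 others at or under 0.20.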

How the data were processed

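RNA-seq libraries of whole liver were made and sequenced by a company, and the submitters' processing notes name HISAT2, DESeq2 and the build GRCm38 (mm10), without versions. The gene counter, its annotation and its use of strand are not given in the sources used here. Raw counts per gene, deposited by the authors without normalization, were used for all tests. The authors also deposited FPKM, counts divided by gene length and library size, which were used only to compare levels between genes. Tables of normalized values and tables of the authors' own comparisons, with fold changes and p-values, were not used.

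The 4 Cpt2 L-/- and 4 Rab30 L-/- libraries were fitted together with edgeR 4.0.16 in R 4.3.3 (filterByExpr, TMM scaling, glmQLFit with robust estimation, glmQLFTest). The filter keeps a gene that is expressed in a single group. Some members counted in the lists were therefore tested only through the group where they were high. A gene passed with a Benjamini-Hochberg adjusted p under 0.05 over all 13359 genes tested and at least a 1.2-fold difference, the limits the study used. The comparisons with ff;ff were fitted in the same way on their own 8 libraries. CPM were scaled by TMM over all 24 libraries. Library totals of the 8 libraries ran from 13248673 to 24497738 counts. Where the lower group had no count, a fold is a bound against a floor of 3 counts over the group, and with 1 to 3 counts a ratio is given with its exact 95% interval. Reads carry no molecular identifiers, so both cover counting error only.

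Named were Rab30 and Cpt2, the 12 highest and 12 lowest protein-coding genes past the thresholds whose CPM did not overlap between the groups and whose higher group had a mean of 50 or more normalized counts, up to 3 members in each direction from each of 37 gene lists, the 10 genes past the thresholds with the highest FPKM, and up to 3 within 5 Mb of each targeted locus. Some genes that the rule chose are not reported here. The genes, lists and comparisons were chosen with earlier results of these data known. Positions used log2(CPM + 0.5). The fitting scripts were tested on simulated data. Alternatives were DESeq2 1.42.0, limma 3.58.1 (voom with sample quality weights), DESeq2 size factors, other filters and thresholds, a fit over all 24 libraries and leaving out each library. Further steps ran in Python 3.11.15, pandas 2.3.3, scipy 1.17.1 and matplotlib 3.10.9. Promoters are from RefSeq, GRCm38.p6.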

Additional observations from a re-analysis of the deposited data

Results flagged for a closer look

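In a group of 4 libraries, a library was singled out where its gap to the nearest other library, as a share of the whole range, was above Dixon's limit for 4 values, which chance alone gives in about 1 of 20 groups. Of the 430 group values of named genes examined, 29 (6.74%) were singled out, 8 of them in Rab30 L-/- replicate 3, the deepest library. For 5 of the 29 the other 3 libraries had no count, so that any count at all would have singled out the library, and 24 (5.58%) remain without them. Cpt2 L-/- replicate 1 lay far above its group for Gbp10 at 0.3200 CPM (0.187 to 0.194 in the other 3) and Abcb11 at 72.1 CPM (36.6 to 42.1 in the other 3). Cpt2 L-/- replicate 2 lay far above its group for Slc16a6 at 10.2 CPM (5.36 to 5.76 in the other 3), Rrm2 at 2.52 CPM (0.686 to 0.906 in the other 3), Cdh1 at 23.5 CPM (11.2 to 12.2 in the other 3) and Got1 at 584 CPM (394 to 417 in the other 3). Cpt2 L-/- replicate 3 lay far above its group for C1s2 at 0.129 CPM (none in the other 3), Socs3 at 8.86 CPM (6.36 to 6.73 in the other 3), Ctsh at 121 CPM (96.1 to 100.2 in the other 3) and Fbp1 at 422 CPM (308 to 326 in the other 3). It lay far below its group for E2f8 at 17.1 CPM (24.02 to 25.1 in the other 3). Rab30 L-/- replicate 1 lay far above its group for Ucp3 at 0.226 CPM (none in the other 3), C1s2 at 16.4 CPM (6.67 to 8.001 in the other 3), Eif2ak3 at 23.8 CPM (13.1 to 14.9 in the other 3), Mup3 at 7607 CPM (4329.9 to 4767 in the other 3) and Hspa5 at 1008 CPM (514 to 568 in the other 3). Rab30 L-/- replicate 2 lay far above its group for Saa2 at 2477 CPM (11.9 to 260.1 in the other 3) and Atg101 at 34.4 CPM (22.8 to 24.4 in the other 3). Rab30 L-/- replicate 3 lay far above its group for Tubb2b at 0.126 CPM (none in the other 3), Creb5 at 0.0419 CPM (none in the other 3), Cd36 at 32.1 CPM (16.6 to 17.3 in the other 3), Elovl6 at 48.6 CPM (18.96 to 20.6 in the other 3), Nupr1 at 3.14 CPM (0.377 to 0.455 in the other 3) and Gsta1 at 0.545 CPM (0.0754 to 0.0824 in the other 3). It lay far below its group for Fitm1 at 0.838 CPM (2.43 to 2.64 in the other 3) and Cyp2c54 at 153 CPM (270.1 to 294 in the other 3). Rab30 L-/- replicate 4 lay far above its group for Fabp3 at 0.0758 CPM (none in the other 3) and Hsd3b7 at 0.758 CPM (0.494 to 0.528 in the other 3). It lay far below its group for Lipa at 135 CPM (187 to 191 in the other 3).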

How the results depend on the processing

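The 4192 calls (2050 higher, 2142 lower, 48.9% of them higher) became 1758 (676 higher, 1082 lower, 38.5% higher) with a 2-fold threshold, which by its construction passes fewer genes, and the members of the gene lists past the thresholds became 291. The same threshold took Cpt2 (log2 fold change -0.80) below it. The total was 4150 with DESeq2 size factors, 4440 with the Wald test of DESeq2, 4835 with limma and voom weights, 3847 in the fit over all 24 libraries, 4390 without a filter, 3802 with at least 10 counts in every library, 4192 without a fold threshold and 5466 without adjustment of p, and no gene of the 4192 changed sign where it was tested (3760 of them with at least 10 counts in every library). When each library was left out in turn, the total ran from 3199 (without Cpt2 L-/- replicate 4) to 4286 (without Rab30 L-/- replicate 1), the higher genes from 1549 to 2106, the lower from 1650 to 2180 and the list members from 406 to 512. The log2 fold change ran from 2.91 to 3.37 for Rab30 and from -0.96 to -0.68 for Cpt2. Median positions ran from 0.15 to 0.23 for ff;ff, 0.80 to 0.85 for DKO, 0.04 to 0.09 for Rab30 Ctrl and 0.03 to 0.09 for Rab30KO.

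Of 174 genes chosen by the rule and reported here besides the targeted ones, 145 kept their call whichever library was left out and 29 lost it at least once, as given beside them. The call was lost for 2 with DESeq2 size factors (Hsd17b7, Marco), 0 with the Wald test of DESeq2, 6 with limma and voom weights (Saa2, Hsd3b7, Slc38a2, Mup9, Gadd45g, Marco), 15 in the fit over all 24 libraries (Acad10, Acat1, Cyp51, Hmgcs1, Hsd17b7, Msmo1, Hsd3b7, Ppp1r3g, Slc38a2, Igfbp1, Ctss, mt-Nd3, Rxrb, Gadd45g, Gbp10), 16 without a filter (Slc16a1, Apoa4, Msmo1, Sdf2l1, Manf, Osgin1, Mup9, Igfbp1, Ctss, mt-Co2, Gadd45b, Gadd45g, Marco, Cd5l, Mup12, Ttc39a) and 1 with at least 10 counts in every library (Rxrb), and the cause was not tested. The 2-fold threshold ended 41, those with a log2 fold change under 1 in size. Of 39 genes named outside the rule, none lost its call when a library was left out. No paired analysis was possible because the labels carry no replicate numbers that the groups share. With 4 libraries a group, and Rab30 L-/- replicate 3 deeper than the others, a miss of the thresholds does not show that a gene is level.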
